A study of Danio rerio with 12 samples.

Results

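The genes described here are those whose symbol on the zebrafish array starts with rpl or rps and a number, or with rplp, which are the names of the cytosolic ribosomal proteins. Kinase genes named rps6k were left out, as was 1 probe set annotated to both rpl32 and kank1a. This gave 73 genes of the 8793 that the array annotation names, with 78 of the 15502 probe sets tested, and the brightest probe set stood for each gene. By name, 41 belong to the large (60S) subunit, 27 to the small (40S) subunit and 3 (rplp0, rplp2 and rplp2b) to the stalk of the large subunit. The other 2, rpl7l1 and rps19bp1, carry the name pattern but are not structural parts of the ribosome. All 73 are listed as protein coding in the zebrafish gene table.

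The arrays measured whole-brain RNA of adult wild-type AB zebrafish in 4 groups of 3: fish that had won a fight against a real opponent, fish that had lost one, fish that had fought their own mirror image, and fish kept in social isolation. All 4 groups, the isolated fish included, shared the strain and a period of 5 days of isolation beforehand, and brains were taken 30 min after the manipulation. Mirror fighting gives a fight without winner or loser, so the groups set fighting and its outcome against no fight. Since all 4 groups had been isolated beforehand, an effect of isolation itself is not separated. Neither the number of brains behind an array nor the sex of its fish is labelled, so the p-values below do not reach beyond the spread between these arrays. The test used below, limma, also draws each gene's spread toward that of all probe sets.

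The ribosome makes protein from mRNA: the small subunit reads the message, the large subunit joins the amino acids, and the stalk recruits the translation factors. Ribosomal proteins are needed in near equal numbers, and in vertebrates most of their mRNAs begin with a 5′ terminal oligopyrimidine (TOP) tract, through which the mTOR pathway adjusts their translation without a change in mRNA amount. In neurons, local protein synthesis by ribosomes near synapses is known to serve long-lasting plasticity.

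The values are the deposited signal intensities, read here as log2. The brain label was checked on neuronal markers: the 8 measured had array medians between 11.90 and 12.22. The 14 hybridization control probe sets, bacterial RNA added in known amounts, were 2.05-fold brighter on the 6 arrays of winners and losers than on the other 6, and the 24 poly-A control probe sets 1.43-fold, with no overlap of the arrays in either. Any difference between fish with a real opponent and the other fish therefore cannot be told apart from a difference in how those arrays were made. The median of all probe sets lay between 6.56 and 6.71 on every array.

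Ribosomal protein mRNAs were bright and steady in all 4 groups. The mean log2 signal was at least 11 for 69 of the 73 genes, and 70 were among the brightest 25% of probe sets. The brightest value of any of them, an intensity of 7478, was under the 19220 reached by another probe set. Their residual SD, the spread between arrays of the same group, had a median of 0.078 on the log2 scale. It was 0.28 over all probe sets and 0.19 over the 3803 other probe sets of the brightest 25%. Those 3803 were dimmer, with array medians of 9.33 to 9.55, so the comparison was not matched for signal level. Some lists described below had medians above 11 on every array. Their median residual SDs were 0.099 (other ribosome parts), 0.12 (elongation factors), 0.15 (neuronal markers) and 0.25 (radial glia markers). Steadiness at equal signal level was not tested. The median gene of the 73 differed 1.19-fold between its highest and lowest array of all 12. The 4 group means lay within 0.2 of each other for 68 of the 73 genes. The steadiest was rpl31, a 60S protein near the exit tunnel, with a residual SD of 0.037, and the least steady was rps27l, a copy of the small-subunit gene rps27, with 0.24.

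**Figure D1:**
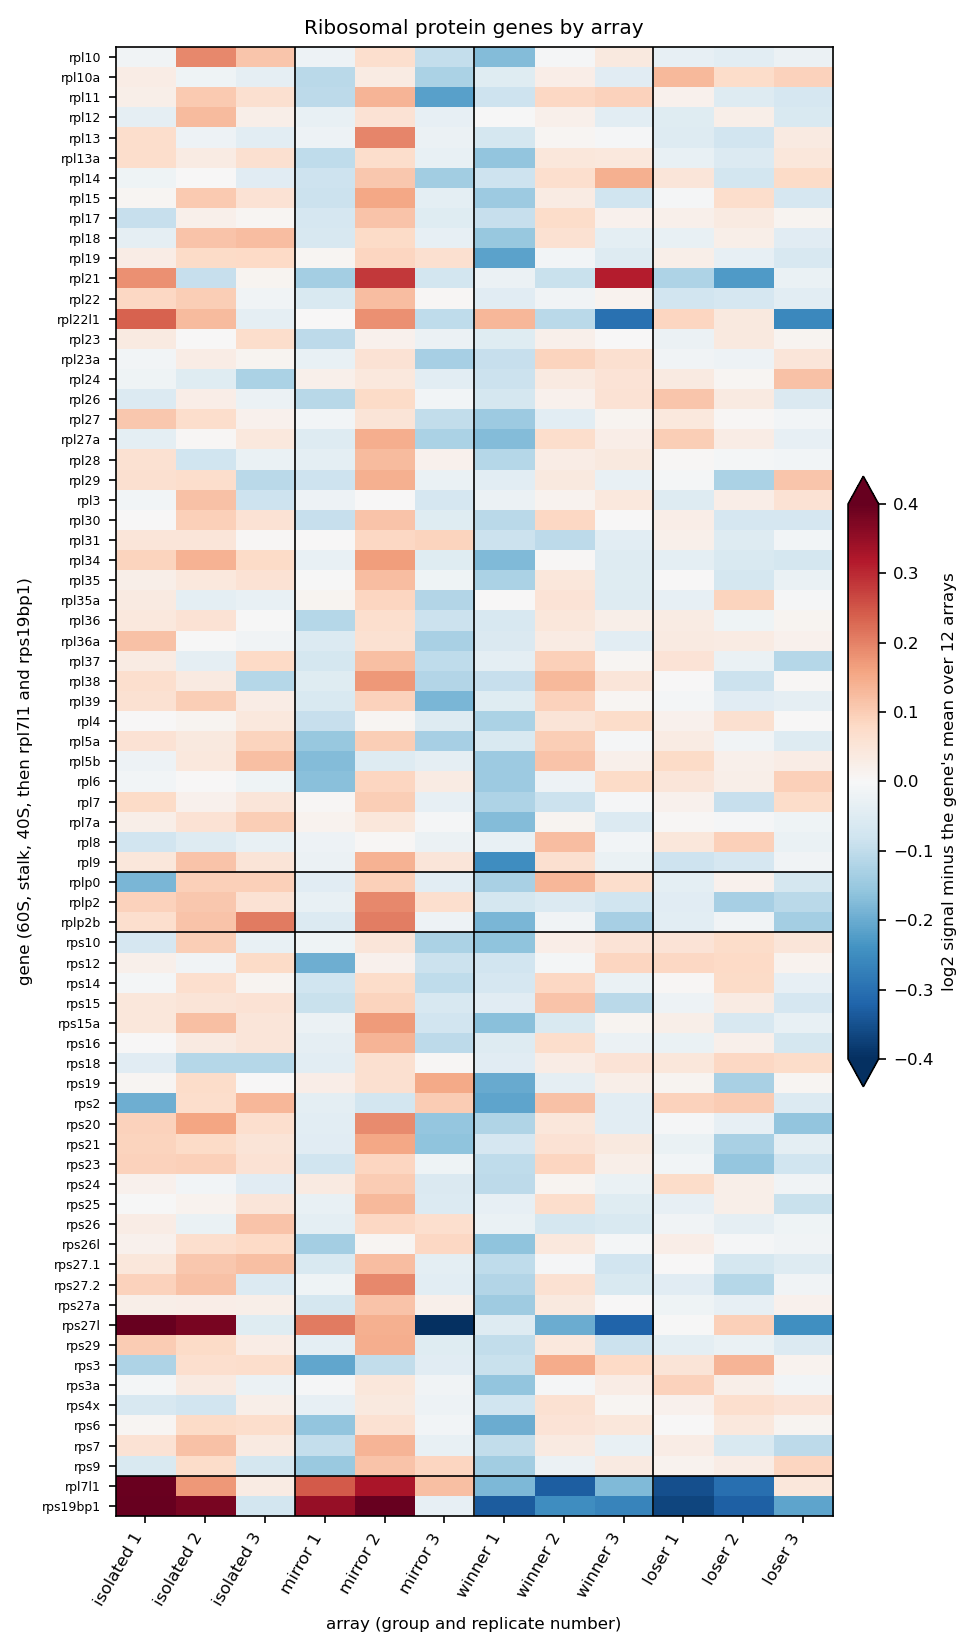
Log2 signal of the 73 genes (rows) on the 12 arrays (columns, by group and replicate number), each minus the gene's mean over all arrays; colours run from -0.4 (blue) to 0.4 (red), and values beyond these limits take the end colours. Most cells are pale; mirror 2 is red and winner 1 blue down nearly the whole column, and rpl7l1 and rps19bp1 in the bottom rows are blue on the winner and loser arrays, except rpl7l1 on loser 3.

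Part of the spread ran along whole arrays, most on mirror 2 and winner 1. Mirror 2 was the highest array of its group for 66 of the 73 genes (90.4%), against 32.3% of all probe sets. Winner 1 was the lowest of its group for 62 of the 73 (84.9%), against 38.7% of all probe sets. Among the other probe sets of the brightest 25% the shares were 32.9% on mirror 2 and 45.7% on winner 1. Subtracting each array's ribosomal protein median lowered the median residual SD to 0.056, and the residual SD was smaller for 60 of the 73 genes.

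The array medians over the 73 genes were 12.10, 12.14 and 12.10 in isolated fish and 12.02, 12.19 and 12.02 in mirror fighters. They were 11.97, 12.09 and 12.04 in winners and 12.12, 12.06 and 12.05 in losers. The groups overlapped, except that the winners' highest array lay just under the isolated fishes' lowest. With each array's median over all probe sets subtracted, those groups overlapped too, at 5.40 to 5.45 in isolated fish and 5.39 to 5.44 in winners. With the median of the other probe sets of the brightest 25% subtracted instead, they did not overlap. The values were then 2.62 to 2.77 in isolated fish and 2.52 to 2.56 in winners. Without the genes that are not ribosome parts or are named as -like copies, 68 remained. Their array medians, with nothing subtracted, overlapped at 12.12 to 12.16 in isolated fish and 12.01 to 12.16 in winners. The separation therefore depended on the reference and on the genes included. Group means were 12.11 ± 0.022 in isolated fish, 12.08 ± 0.098 in mirror fighters, 12.03 ± 0.061 in winners and 12.08 ± 0.039 in losers (SD, n = 3 each), so 1 of the mirror arrays set most of that group's spread.

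**Figure D2:**
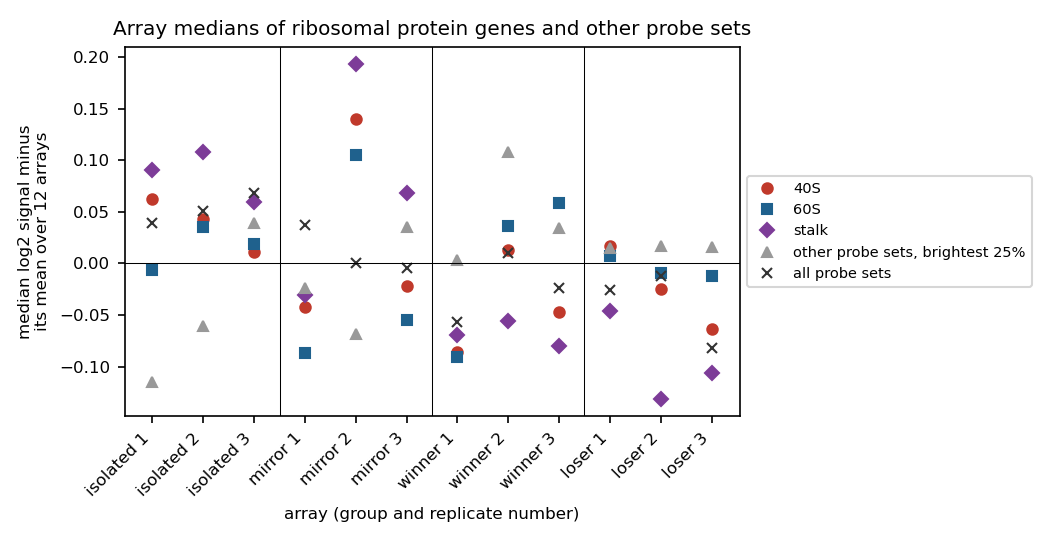
Median log2 signal on each of the 12 arrays, minus that median's mean over the arrays, for 40S genes (circles), 60S genes (squares), the 3 stalk genes (diamonds), the other probe sets of the brightest 25% (triangles) and all probe sets (crosses). The 40S, 60S and stalk medians are highest on mirror 2, where the other bright probe sets are low. The stalk median is below 0 on all 6 winner and loser arrays. It is the signal of rplp2 on every array, since rplp0 is always brighter and rplp2b always dimmer. Group means in isolated fish, mirror fighters, winners and losers were 12.74, 12.74, 12.76 and 12.70 for rplp0, and 11.61, 11.53, 11.37 and 11.42 for rplp2b.

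Winners were compared with isolated fish to set a won fight against no social contact. No ribosomal protein gene passed limma's test at a Benjamini-Hochberg adjusted p of 0.05, against 0.245% of all probe sets. An unadjusted p under 0.05 was found in 3 of the 73 (rps19bp1, rpl7l1 and rps27l), against 19.6% of all probe sets. In 59 of the 73 genes (80.8%) the difference lay below 0, against 49.0% of all probe sets. The median log2 difference over the 73 genes was -0.051, beside 0.0098 over all probe sets. The sign of that median was not settled: it became 0.025 when each array was centred on its median, and it was -0.011 without winner 1 and -0.083 without winner 2. In 15 genes (20.5%) all 3 winner arrays lay below all 3 isolated arrays, against 13.2% of all probe sets, and in 0 they lay above, against 10.6%. The 15 share the same 6 arrays and are not independent.

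Losers were compared with isolated fish in the same way, against the same isolated arrays. Again limma called 0 of 73 genes after adjustment, against 0.568% of all probe sets. An unadjusted p under 0.05 was found in 2 of the 73 (rps19bp1 and rpl7l1), against 21.2% of all probe sets. The median difference was -0.053, beside -0.0074 over all probe sets, and it became 0.040 with each array centred on its median. Of the 73 genes 52 lay below 0 (71.2%), against 50.8% of all probe sets. The arrays did not overlap in 22 genes that were lower in losers (30.1%, against 15.3% of all probe sets) and in 5 that were higher (6.85%, against 10.8%). The 5 were rpl10a, rpl24, rpl6, rpl8 and rps18, of which rpl6 is named only because the count is small.

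Mirror fighters were compared with isolated fish to see fighting without an outcome. The limma test called 0 genes after adjustment, as it did over all probe sets (0%). At an unadjusted p under 0.05 there were 0 of the 73, against 3.83% of all probe sets. The median difference was -0.036, beside 0.0038 over all probe sets. It was -0.015 without mirror 1, -0.091 without mirror 2 and -0.017 without mirror 3. Of the 73 genes 55 lay below 0 (75.3%), against 49.2% of all probe sets, so this lean was not limited to fish with a real opponent. The arrays did not overlap in 3 genes: rpl5b was lower (1 of 73, against 5.78% of all probe sets), and rpl8 and rps18 were higher (2 of 73, against 4.94%). These shares are below those of all probe sets.

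Winners and losers were compared to see the outcome of a real fight. Limma called 0 of 73 genes after adjustment and 0% of all probe sets. At an unadjusted p under 0.05 there were 0 of the 73, against 4.14% of all probe sets. The median difference was -0.020, beside 0.025 over all probe sets, and it turned to 0.021 without winner 1. The largest difference was in rpl21, a 60S protein, at 0.19 ± 0.16 (SE), and it was 0.070 without winner 3. Only rpl10a had non-overlapping arrays (1 of 73 lower in winners, against 2.64% of all probe sets).

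Against mirror fighters, limma called 0 of 73 genes in winners (0.00645% of all probe sets) and 0 in losers (0.174%), after adjustment. At an unadjusted p under 0.05 there were 2 in each, rps19bp1 and rpl7l1, against 16.8% of all probe sets in winners and 17.7% in losers. The median differences were -0.015 in winners and -0.012 in losers, beside 0.0045 and -0.0013 over all probe sets, and without mirror 2 they turned to 0.032 and 0.044. In 6 genes the winner arrays lay below the mirror arrays without overlap (8.22%, against 11.7% of all probe sets). In losers 4 genes lay below (5.48%, against 14%) and 4 above (5.48%, against 10.3%). Those below were rpl7l1, rplp2, rps19 and rps19bp1, and those above were rpl10a, rpl5b, rps10 and rps3. The limma F-test over the 4 groups called 0 of 73 genes after adjustment, against 0.277% of all probe sets. Its unadjusted p was under 0.05 in 2 of the 73 (rps19bp1 and rpl7l1), against 18.6% of all probe sets. Under 23 alternative settings no gene was called in any of these 6 comparisons or the F-test, and the smallest adjusted p was 0.065.

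**Figure D3:**
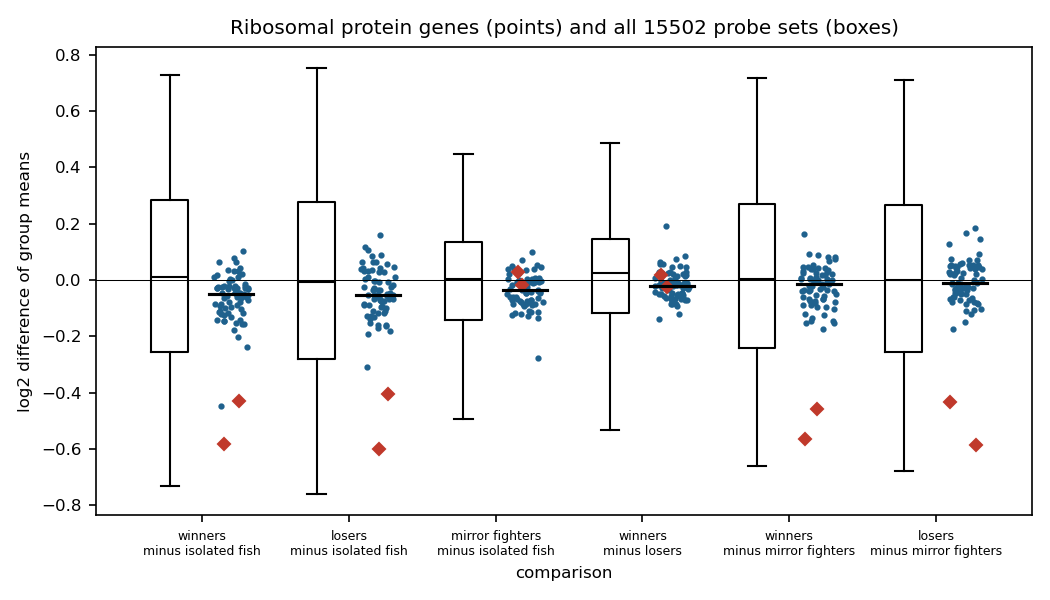
Log2 difference of group means in the 6 comparisons: points are the 73 genes, red diamonds among them rpl7l1 and rps19bp1, the bar beside them their median, and the boxes show the quartiles of all 15502 probe sets with whiskers from the 5th to the 95th percentile. Nearly all points sit in a band narrower than the boxes, and the diamonds lie between -0.40 and -0.60 in the 4 comparisons of fish with a real opponent to fish without one.

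How small a change could be seen was given by the intervals. Limma draws each gene's spread toward that of all probe sets, whose median residual SD was 0.28, against 0.078 for the 73 genes. This widens the SEs and intervals of such steady genes and raises their p-values, so the counts of unadjusted p under 0.05 rest partly on it. The median interval reached 0.25 to either side of the difference, and 0.17 with a variance prior that follows the signal level. The 95% intervals of the differences lay within 0.5 on either side of 0, a 1.41-fold change, for 68 genes in winners and 68 in losers against isolated fish, 72 in mirror fighters against isolated fish, and 70 or 71 in the other 3 comparisons. For these genes a change beyond 0.5 lay outside the interval. In simulated data for losers against isolated fish, 100% of ribosomal protein changes of log2 1 and 0% of changes of 0.5 were recovered. With a variance prior that follows the signal level, 84% of the latter were recovered. On the real arrays that setting called 0 genes in the 6 comparisons. The simulated noise was independent between genes and arrays, without the shifts along whole arrays described above, and no other probe set was changed. These shares therefore cannot show that changes of 0.5 are absent from the real arrays.

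Among the genes of the stalk, rplp2 stood apart most evenly. Its log2 signals were 12.07, 12.09 and 12.04 in isolated fish, 11.95, 12.18 and 12.05 in mirror fighters, 11.91, 11.93 and 11.90 in winners, and 11.94, 11.85 and 11.88 in losers. All 6 winner and loser arrays were below all 6 others, as in 2 of the 73 genes (the other is rps19bp1) and 4.23% of all probe sets. The differences were -0.15 ± 0.11 in winners and -0.18 ± 0.11 in losers against isolated fish, and neither passed limma's test after Benjamini-Hochberg adjustment (adjusted p = 0.44 and 0.35). Its copy rplp2b differed by -0.24 ± 0.12 and -0.19 ± 0.12 (adjusted p = 0.29 and 0.37, limma). The scaffold of the stalk, rplp0, which anchors the other stalk proteins, differed by 0.023 ± 0.13 and -0.033 ± 0.13.

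In the small subunit rps18, a protein of the subunit's head, had the largest positive differences from isolated fish. Its signals were 12.28, 12.21 and 12.21 in isolated fish, 12.29, 12.39 and 12.33 in mirror fighters, 12.28, 12.35 and 12.38 in winners, and 12.37, 12.41 and 12.40 in losers. All mirror and loser arrays were above the isolated arrays, and winner 1 met the highest isolated array. The differences from isolated fish were 0.10 ± 0.10 in winners, 0.16 ± 0.10 in losers and 0.10 ± 0.10 in mirror fighters, and none passed limma's test. rps3, which lines the mRNA entry channel, differed by 0.16 ± 0.12 in winners and 0.18 ± 0.12 in losers from mirror fighters, and by 0.042 and 0.063 from isolated fish. rps19, the gene first linked to Diamond-Blackfan anaemia in humans, differed by -0.15 and -0.12 from mirror fighters. rps6, the substrate of the S6 kinases and named for that role outside the naming rule, differed by -0.084 ± 0.12 in winners and -0.034 ± 0.12 in losers from isolated fish.

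In the large subunit rpl10a, which forms the mobile L1 stalk beside the exit site, was highest in losers. Its signals were 12.02, 11.98 and 11.96 in isolated fish, 11.89, 12.03 and 11.87 in mirror fighters, 11.95, 12.02 and 11.95 in winners, and 12.13, 12.07 and 12.09 in losers. The 3 loser arrays lay above all 9 others. The share of all probe sets with this pattern was not counted. For winners and losers alone, the winner arrays lay below the loser arrays without overlap in 2.64% of all probe sets. rpl10a was named because its differences were among the most extreme, so the pattern is no independent evidence of a trait of losers. The losers' differences were 0.11 ± 0.11 from isolated fish, 0.17 ± 0.11 from mirror fighters and 0.12 ± 0.11 from winners. Each 95% interval included 0, with the spread drawn toward that of all probe sets as described above. rpl24, which bridges the subunits, differed by 0.12 ± 0.11 in losers from isolated fish. rpl8, near the site of peptide bond formation, lay at 0.079 and 0.089 in winners and losers. rpl5a, rpl5b and rpl11, whose proteins join 5S rRNA and can bind Mdm2 when ribosome assembly is disturbed, differed from isolated fish by at most 0.098 in winners and losers. In mirror fighters they differed by -0.12, -0.13 and -0.13, and none was called.

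**Figure D4:**
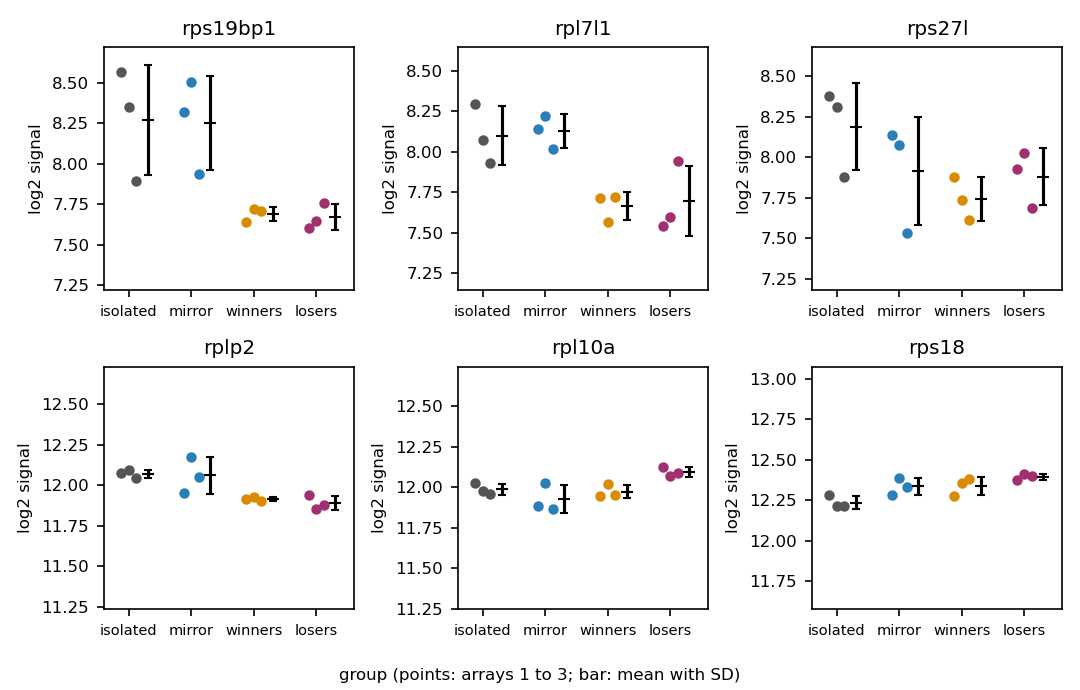
Log2 signal of 6 genes on each array by group (points: arrays 1 to 3; bar: mean with SD, n = 3), with every panel spanning 1.5 log2 units. rps19bp1 and rpl7l1 are lower on winner and loser arrays, except that rpl7l1 on loser 3 reaches the lowest isolated array; rplp2, rpl10a and rps18 vary within 0.33 log2 units over the 12 arrays.

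In winners and losers against isolated fish and against mirror fighters, the largest difference was in rps19bp1, which is not part of the ribosome. The other gene that is not part of it, rpl7l1, came next, except behind rps27l in winners against isolated fish. rps19bp1 encodes a small protein that binds Rps19 and, in mammals, the deacetylase Sirt1. Its signals were 8.57, 8.35 and 7.90 in isolated fish, 8.32, 8.51 and 7.94 in mirror fighters, 7.64, 7.72 and 7.71 in winners, and 7.61, 7.65 and 7.76 in losers. All 6 winner and loser arrays were below all 6 others, whose replicate 3 came closest. The differences were -0.58 ± 0.19 in winners and -0.60 ± 0.19 in losers from isolated fish, and -0.56 and -0.58 from mirror fighters, with limma adjusted p between 0.13 and 0.21. Mirror fighters differed from isolated fish by only -0.017 ± 0.19.

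rpl7l1 is a relative of rpl7 whose yeast counterpart acts in assembly of the large subunit. Its signals were 8.29, 8.07 and 7.93 in isolated fish, 8.14, 8.22 and 8.02 in mirror fighters, 7.72, 7.57 and 7.72 in winners, and 7.54, 7.60 and 7.94 in losers. Winners lay below both groups without a real opponent, while loser 3 reached the lowest isolated array. The differences were -0.43 ± 0.15 and -0.40 ± 0.15 from isolated fish and -0.46 and -0.43 from mirror fighters, with limma adjusted p between 0.16 and 0.20. rpl7 itself differed by -0.12 in winners and -0.048 in losers from isolated fish.

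Because both genes differed the same way in winners and losers, the 6 arrays of fish with a real opponent were also compared with the other 6. This comparison was chosen after these values were seen and carries the difference in spiked controls, so it is no independent evidence. Limma called 2 of the 73 genes, both lower, against 6.15% of all probe sets lower and 10.2% in either direction: rps19bp1 at -0.58 ± 0.13 (adjusted p = 0.031) and rpl7l1 at -0.43 ± 0.11 (adjusted p = 0.034). The other 71 were not called. With the replicate number as a block limma called rps19bp1 (adjusted p = 0.037) but not rpl7l1 (0.050), and rpl7l1 was not called with each array centred on its median (0.060) or with quantile normalization (0.058). Under quantile normalization the stalk gene rplp2b was called in its place, at -0.32 ± 0.082 (adjusted p = 0.040, limma), against -0.17 ± 0.085 (0.19) without it. Leaving out replicate 1 or 2 of any group ended both calls, with limma adjusted p of 0.053 to 0.076 for rps19bp1 and 0.063 to 0.083 for rpl7l1. In those fits only 0.91% to 3.48% of all probe sets were called lower. The differences were then -0.51 to -0.59 for rps19bp1 and -0.38 to -0.44 for rpl7l1. Both calls remained when replicate 3 of any group was left out. A second probe set of rps19bp1 differed by -0.36.

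Copies among the 73 were set side by side. rps26 and rps26l differed by -0.091 and -0.095 in winners from isolated fish, rps27.1 and rps27.2 by -0.15 and -0.089, and rpl5a and rpl5b by -0.052 and -0.051. These pairs could share labelled RNA on the array, since near-identical copies may bind each other's probes. The -like copy rps27l had signals of 8.38, 8.31 and 7.88 in isolated fish, 8.14, 8.07 and 7.53 in mirror fighters, 7.88, 7.73 and 7.61 in winners, and 7.93, 8.03 and 7.69 in losers. Replicate 3 was the lowest array in each group, winners lay just below the lowest isolated array, and the other groups overlapped with isolated fish. Winners differed from isolated fish by -0.45 ± 0.20 (limma adjusted p = 0.25). rpl22l1 differed by -0.20 ± 0.16 and rpl22 by -0.071 ± 0.11.

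Of the 4 genes with more than 1 probe set, all had at least 1 comparison in which their probe sets differed in sign. The second probe set of rpl21 was dim, with a mean log2 signal of 3.96, and differed by 0.73 between winners and losers where the chosen one differed by 0.19. For rpl3, at the centre of the large subunit, the chosen probe set differed by 0.0030 in winners from isolated fish and the other by -0.070. For rps27.1 the sign split in winners against losers and against mirror fighters, and for rps19bp1 only in mirror fighters against isolated fish.

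Other genes of the translation machinery were set beside these 73 from lists of their names and known roles. The 7 lists hold 212 genes, of which limma called 0 in each of the 6 comparisons after adjustment. At an unadjusted p under 0.05 there were 42 in winners and 43 in losers against isolated fish, 33 and 39 against mirror fighters, 2 in mirror fighters against isolated fish and 3 in winners against losers. These are 19.8% and 20.3%, 15.6% and 18.4%, 0.943% and 1.42% of the 212, against 19.6% and 21.2%, 16.8% and 17.7%, 3.83% and 4.14% of all probe sets. With trended robust moderation 1 gene, nhp2, was called in losers against isolated fish (0.472% of the 212, against 1.05% of all probe sets). Among 3 further ribosome parts rack1, a scaffold on the small subunit, differed by -0.097 ± 0.12 in winners and -0.054 ± 0.12 in losers from isolated fish, and faua by 0.043 and -0.0041. The copy faub differed by -0.043 and -0.093 with an SE of 0.24. The 46 initiation factors had medians of -0.081 and -0.064 in winners and losers against isolated fish, the 11 elongation factors -0.074 and -0.023, the 26 other TOP mRNAs -0.077 and -0.025, and the 23 genes of the mTOR pathway and the S6 kinases 0.045 and -0.027. Of the 26 other TOP mRNAs, 14 are also initiation or elongation factors.

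The nuclear genes for proteins of the mitochondrial ribosome, a separate machine, had lower medians. Over the 59 measured, the medians were -0.24 in winners and -0.32 in losers against isolated fish, -0.26 and -0.31 against mirror fighters, and 0.049 in mirror fighters against isolated fish. In winners 52 and in losers 51 of the 59 lay below 0 against isolated fish, where 49.0% and 50.8% of all probe sets did. The 59 genes of ribosome biogenesis, the nucleolar factors that build cytosolic ribosomes, had medians of -0.20 and -0.14 against isolated fish and -0.19 and -0.086 against mirror fighters. Whether these lists differ from the cytosolic ribosomal proteins was not tested.

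In the added comparison of fish with a real opponent against the rest, limma called 10 of the 59 mitochondrial ribosomal protein genes and 8 of the 59 biogenesis genes, all lower, against 6.15% of all probe sets lower. These counts were not stable. Over the 12 fits without 1 array they ran from 0 to 16 and from 2 to 8, while the share of all probe sets called lower ran from 0.91% to 7.24%. With each array centred on its median 3 and 4 were called, and over all probe sets 6.97% were then higher and 4.03% lower, where 4.05% had been higher before. Quantile normalization left 3 mitochondrial ribosomal protein genes (5.08%) and 8 biogenesis genes (13.6%), against 5.35% of all probe sets lower. mrps33 differed by -1.17 ± 0.30 (adjusted p = 0.040) and mrpl43 by -0.82 ± 0.19 (0.032). rrs1, which brings the 5S particle into the large subunit, had signals of 6.44, 6.68 and 6.52 in isolated fish, 6.65, 6.41 and 6.02 in mirror fighters, 5.34, 5.81 and 4.84 in winners, and 5.94, 5.69 and 5.80 in losers. All 6 winner and loser arrays of rrs1 were below all 6 others, and it differed by -0.88 ± 0.17 (adjusted p = 0.020, limma). mrto4, which prepares the site of the stalk, differed by -0.66 ± 0.11 (0.015) and nhp2, of the pseudouridylation particles, by -0.62 ± 0.098 (0.012). These calls stand on the same arrays as the brighter spiked controls, whose part in them cannot be told apart.

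**Figure D5:**
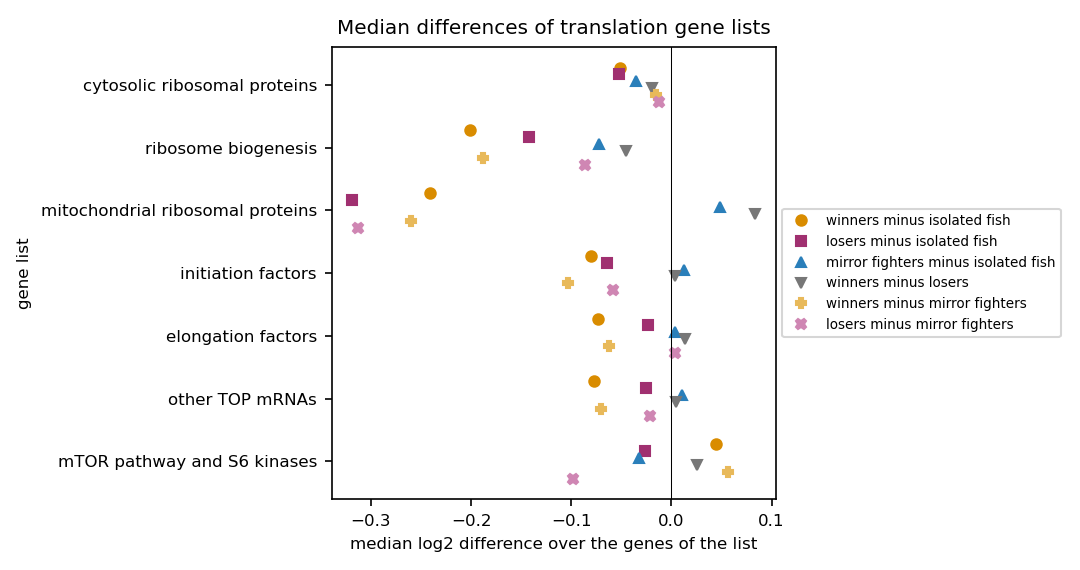
Median log2 difference over the genes of 7 lists (rows) in the 6 comparisons (symbols). The cytosolic ribosomal proteins lie between -0.053 and -0.012, and the mitochondrial ribosomal proteins between -0.24 and -0.32 in the 4 comparisons of fish with a real opponent to fish without one.

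Of the remaining lists limma called 3 of 23 genes of the mTOR pathway and S6 kinases in the added comparison (13%), 2 of 46 initiation factors (4.35%), 1 of 11 elongation factors (9.09%) and 3 of 26 other TOP mRNAs (11.5%), against 10.2% of all probe sets. Shares near that of all probe sets are not a result about these lists. In this comparison larp1, which binds the TOP tract, was higher by 0.77 ± 0.18 (limma adjusted p = 0.032), larp1b lower by -0.52 ± 0.12 (0.033) and the kinase gene rps6ka1 lower by -0.34 ± 0.092 (0.043). rps6kb1b, an S6 kinase gene, had its largest difference in winners against losers, 0.41 ± 0.14 (adjusted p = 1.00). Among the initiation factors eif3eb was lower by -0.43 ± 0.096 (limma adjusted p = 0.027) and eif2b5 higher by 0.32 ± 0.091 (0.049). In the elongation factor list, taken by symbols that start with eef and not by role, eef1e1 was lower by -0.39 ± 0.11 (0.044). Among the other TOP mRNAs hnrnpa1b and pabpc1b were higher, by 0.72 ± 0.16 (limma adjusted p = 0.029) and 0.32 ± 0.087 (0.045). The calls of the added comparison in these lists were not stable. Without isolated 1, and also without winner 1, 0 of their genes were called. Over all probe sets 0.606% and 1.1% were then called higher and 0.91% and 1.99% lower. The added comparison was chosen after values were seen and carries the difference in spiked controls.

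Markers of other cell types were read on the same arrays. The 10 microglia and leukocyte markers measured had a median difference of -1.43 in winners from isolated fish, with 10 of 10 below 0, of -0.49 in losers, with 9 of 10 below 0, and of -0.61 in mirror fighters, with 8 of 10 below 0; losers differed from mirror fighters by -0.048. After adjustment limma called 0 of the 10 in each, with 7 in winners, 3 in losers and 3 in mirror fighters at an unadjusted p under 0.05, against 19.6%, 21.2% and 3.83% of all probe sets. In the added comparison it called 3 of the 10, all lower, against 6.15% of all probe sets lower, and 0 to 3 with 1 array left out. That comparison was chosen after values were seen and carries the difference in spiked controls. Their array medians ranged from 6.81 to 7.76 in isolated fish, 6.31 to 6.72 in mirror fighters, 5.48 to 6.603 in winners and 5.93 to 7.74 in losers. At the floor of the scale were 0 markers, but called ones were dim. In winners and losers cxcr4b had means of 4.87 and 4.80, csf1ra 5.13 and 4.83, and ncf1 5.28 and 5.48. The dimmest 25% of probe sets had means under 5.02. In whole brain, fewer cells of a type and less RNA per cell cannot be told apart. The medians against isolated fish in winners and losers were 0.20 and 0.036 for the 8 neuronal markers, -0.12 and -0.13 for 5 oligodendrocyte markers, -0.018 and -0.074 for 8 radial glia markers, -0.27 and -0.29 for 6 erythrocyte markers, and -0.21 and -0.089 for 9 genes of dividing cells. Limma called elavl3 of the neuronal markers and mki67 of the dividing cell genes in the added comparison, both higher, against 4.05% of all probe sets higher. mki67 differed by 0.52 ± 0.12 (limma adjusted p = 0.030), while 6 of the 9 dividing cell genes lay below 0. With 1 array left out 0 to 2 neuronal markers and 0 to 1 dividing cell genes were called. With the mean over a gene's probe sets 0 of either were called, against 4.01% of all probe sets higher. The part of these markers in the differences of the ribosomal protein genes was not tested.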

How the data were processed

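The series table that the authors deposited holds 1 linear signal intensity per probe set for each of 12 Affymetrix zebrafish arrays, made from 100 ng of total RNA per the labels. The summary and normalization method is not given in the sources used here; Partek 6.6 is named in the submitters' processing notes without its role. The labels give conflicting RNA extractions, a lipid tissue column kit with DNase and Trizol. All 12 value columns were matched to a labelled array.

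Log2 was taken without an offset. After 115 control probe sets were left out, group means were fitted to 15502 probe sets over all arrays (limma 3.58.1, R 4.3.3; 8 residual degrees of freedom and 2.55 prior ones). P-values are two-sided and Benjamini-Hochberg adjusted over all probe sets within a comparison, and genes were called at an adjusted p under 0.05. Values after ± are standard errors for differences and SDs for levels. Genes were named from the platform annotation where a probe set had 1 symbol. The number of arrays limits the precision.

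The genes, lists and comparisons were chosen with earlier results of these data known. Named were genes called in any comparison, the 4 highest and 4 lowest per comparison, the 5 with the smallest F-test p, the 5 brightest, dimmest, steadiest and least steady, copies, and genes whose probe sets differed in sign; this takes 37 of the 73. From each list every called gene and up to 3 per comparison with the smallest p could be named. rpl6 and rps6, outside that rule, were named after their values were seen.

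Same-numbered arrays were checked for pairing: the correlation of their deviations exceeded 0.1 for every pair only between winners and losers (0.112, 0.111 and 0.233), and the labels do not say that a number marks a shared fight. Alternatives were quantile normalization, median centring, an offset of 32, leaving out the dimmest 25%, trended robust moderation, the compared groups alone, a replicate block, other choices of probe set, a narrower set of 68 genes, and leaving out each array. The script was tested on simulated data. No sequences are shown because none were used here.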

Additional observations from a re-analysis of the deposited data

How the results depend on the processing

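In the 6 pairwise comparisons the count of genes called stayed at 0 under every alternative run, and with the replicate block (pairing by number) it also stayed at 0. The medians over the 73 genes moved by more than the spread between replicate arrays under scaling. Quantile normalization gave -0.14 in winners against isolated fish and -0.10 in winners against mirror fighters. Centring each array on its median gave 0.025 in winners and 0.040 in losers against isolated fish, and centring on the ribosomal protein median with trended robust moderation, added after seeing the data, gave 0.032 in winners against isolated fish; that centring holds the members' median near 0 by construction. Leaving out 1 array gave medians of -0.040 to 0.044 in losers and -0.047 to 0.032 in winners against mirror fighters, and -0.051 to 0.021 in winners against losers. In the added comparison of fish with a real opponent against the rest the median was -0.10 with quantile normalization and 0.033 with median centring. There the count of called genes was 2, also 2 with quantile normalization (rps19bp1 and rplp2b), 1 with median centring, 1 with the replicate block and 0 to 2 when an array was left out. Without the genes that are not ribosome parts or are named as -like copies it was 0, since both called genes are among those left out. The block changed no other call among the 73 genes. In the other lists it left 7 mitochondrial ribosomal protein genes and 6 biogenesis genes called in the added comparison, against 5.14% of all probe sets lower. The calls of eef1e1, eif2b5, rps6ka1 and pabpc1b were lost with it. The cause of the other changes was not tested. With 3 arrays per group, differences under about 0.25 for the median gene lie inside the 95% interval. With trended robust moderation on the same arrays this limit is about 0.17, so it depends on the moderation too.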
